A study of Rattus norvegicus with 24 samples.

Results

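The genes described here are 39 cell cycle and DNA replication genes, matched by symbol in a lung RNA-seq count table of 30043 genes. They were set out as 18 genes of S phase and DNA replication and 21 genes of G2 and mitosis, and the sets are reported apart. All 39 were found, and 32 had enough reads to be tested, 15 of the S phase set and 17 of the mitosis set. The lungs came from 24 male Fischer 344 (F344/DuCrl) rats, 3 months old when bought, kept 29 weeks in whole-body inhalation chambers, with 6 rats in each of 4 groups. The combined group inhaled both agents: crystalline silica (Min-U-Sil5) at 15 mg/m3 for 6 h on each of 5 days in week 3, and cigarette smoke at 45 mg/m3 in week 1 and 80 mg/m3 from then on, except in week 3. The silica group inhaled the same silica dose in week 3 and air at other times. The smoke group inhaled smoke for 3 h a day on 2 days a week, as the combined group did, at 40 mg/m3 in week 1 and 80 mg/m3 later, and no silica. The air group inhaled air throughout. Each library was made from total RNA of a piece of lung after removal of ribosomal RNA. It holds the RNA of all cell types, so fewer cells of a type and less RNA per cell cannot be told apart.

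The cell cycle copies DNA in S phase and separates the copies in mitosis. In S phase the MCM proteins form the helicase that opens the DNA, PCNA clamps the polymerase to it, and ribonucleotide reductase (Rrm1 and Rrm2), Tyms and Tk1 supply nucleotides. E2F transcription factors switch on many S phase genes, and the MuvB complex with MYBL2 (B-Myb) and FOXM1 switches on the later genes of mitosis, such as cyclin B, the kinases Cdk1 and Plk1 and the spindle motors. Most cells of the adult lung rest outside the cycle, and alveolar type 2 cells, endothelial cells, macrophages and fibroblasts can re-enter it after injury.

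The promoters of the sets differed in the motifs they held. Promoter windows of 250 bases before to 50 bases after the gene start were taken from RefSeq (assembly GRCr8), which had an entry for 30 of the 39 genes, 14 of the S phase set and 16 of the mitosis set. There was no entry for Rrm2, Mcm4, Cdc6, E2f1, Foxm1, Ccna2, Aurkb, Ube2c and Tpx2. The E2F motif, searched as TTTCCCGC or TTTGGCGC on both strands, was in the windows of 9 of 14 S phase genes (64.3%) and 0 of 16 mitosis genes, against 1.62% of all 27457 genes with a window. The CHR motif (cell cycle genes homology region), searched as TTTGAA or TTCGAA on both strands, was in 3 of 14 S phase windows (21.4%) and 11 of 16 mitosis windows (68.8%), against 21.0% of all. The CCAAT box, on either strand, was in 9 of 14 S phase windows (64.3%), 12 of 16 mitosis windows (75.0%) and 39.6% of all. Such a match says that the letters are present, not that a factor binds. The windows of 4 genes are shown because they carry the motif of their set and their mRNAs are among those described below. The first pair are S phase genes, with the E2F motif in capitals (on the other strand it reads as its reverse complement).
Mcm5 (chr19:13488563-13488862, plus strand): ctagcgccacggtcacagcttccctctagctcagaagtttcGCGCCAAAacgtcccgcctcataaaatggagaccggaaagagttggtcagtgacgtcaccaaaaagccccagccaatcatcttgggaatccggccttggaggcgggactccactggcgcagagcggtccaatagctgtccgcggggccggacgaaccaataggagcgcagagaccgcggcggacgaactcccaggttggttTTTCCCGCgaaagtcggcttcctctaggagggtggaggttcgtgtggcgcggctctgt
Mcm6 (chr13:42404303-42404602, minus strand): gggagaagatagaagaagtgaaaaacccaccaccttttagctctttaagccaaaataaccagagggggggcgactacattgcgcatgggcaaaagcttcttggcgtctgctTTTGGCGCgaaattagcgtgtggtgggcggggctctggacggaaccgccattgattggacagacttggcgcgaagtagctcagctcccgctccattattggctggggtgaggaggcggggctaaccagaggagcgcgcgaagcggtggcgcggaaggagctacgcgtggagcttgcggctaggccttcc
The next pair are mitosis genes, with the CHR motif in capitals, again on either strand.
Mki67 (chr1:199952544-199952843, minus strand): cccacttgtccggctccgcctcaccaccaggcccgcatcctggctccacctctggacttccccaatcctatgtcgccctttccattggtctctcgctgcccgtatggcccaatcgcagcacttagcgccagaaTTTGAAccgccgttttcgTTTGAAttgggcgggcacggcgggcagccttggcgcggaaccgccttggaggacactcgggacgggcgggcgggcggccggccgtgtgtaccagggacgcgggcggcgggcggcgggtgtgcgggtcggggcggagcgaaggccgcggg
Top2a (chr10:84473044-84473343, minus strand): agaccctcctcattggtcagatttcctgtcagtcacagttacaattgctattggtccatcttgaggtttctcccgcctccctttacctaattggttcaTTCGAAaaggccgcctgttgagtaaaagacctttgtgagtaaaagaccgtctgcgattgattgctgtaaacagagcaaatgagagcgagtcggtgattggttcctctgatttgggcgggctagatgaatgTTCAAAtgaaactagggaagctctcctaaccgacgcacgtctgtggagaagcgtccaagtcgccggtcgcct
The Mcm5 window held the E2F motif more than once, and the Mki67 and Top2a windows each held more than 1 CHR motif. The calls meant here are those of the edgeR test used below. Among the genes of the S phase set called with all 24 libraries, the E2F letters were in the windows of Mcm3, Mcm5, Mcm6 and Uhrf1. They were absent from those of Rrm1, Mcm2, Pcna, Tk1 and Clspn. Among those of the mitosis set called with all 24 libraries, the CHR letters were in the window of Mki67 and absent from those of Mybl2, Kif11 and Bub1. Of those that edgeR called only when libraries that stood apart were left out, Top2a, Cdk1, Bub1b, Cenpf and Cdca8 had the letters and Ccnb1 did not.

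**Figure D1:**
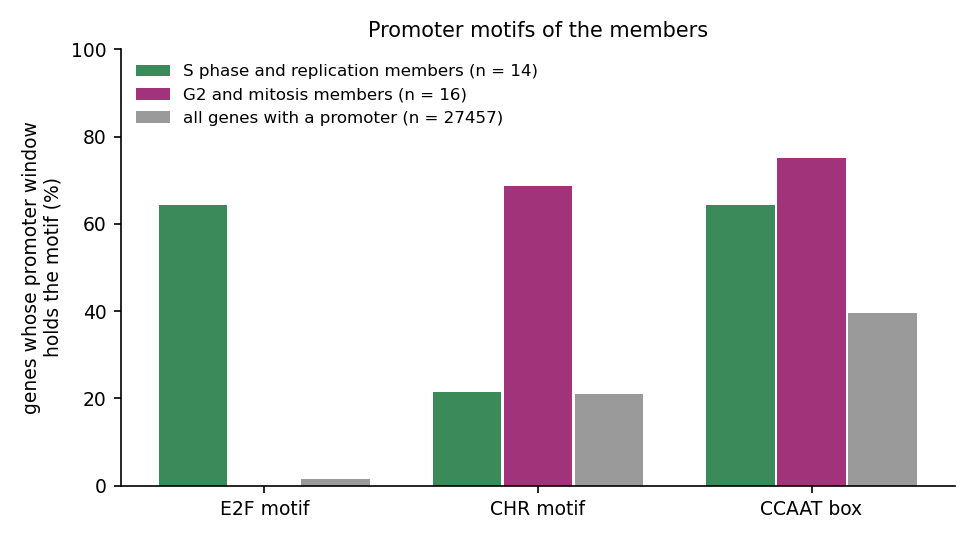
Share of genes (%, bars start at 0) whose promoter window holds the E2F motif, the CHR motif or the CCAAT box, for the S phase set (n = 14), the mitosis set (n = 16) and all genes with a window (n = 27457). The E2F bar of the S phase set stands at 64.3% and that of the mitosis set at 0, while the CHR bar of the mitosis set stands at 68.8%, against 21.0% of all genes.

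Total counts ran from 1084815 to 4687805 in 22 libraries, but smoke 2 had 21629 and silica 4 had 280484. Levels are given in CPM, counts scaled to a common library total. In smoke 2, 3 reads of a gene amount to 139 CPM, and its beta-globin (Hbb) stood at 306995 CPM, against at most 7898 CPM in any other library. Its level of single genes could not be read, so levels of the smoke group are given below for the other 5 libraries, while every test included smoke 2 unless it says otherwise. Other libraries stood apart at normal depth. Mmp12, a macrophage metalloproteinase, was at 3.26 CPM in silica 1, against 57.0 to 73.6 CPM in the other 5 silica libraries, and at 57.9 CPM in smoke 1, against 3.64 to 11.9 CPM in smoke 3 to smoke 6. Spp1 (osteopontin), another macrophage product, was at 1.86 CPM in silica 1, against 51.6 to 107 CPM in the other silica libraries, and at 33.5 CPM in smoke 1, against 2.55 to 6.70 CPM in smoke 3 to smoke 6. On both genes silica 1 lay in the range of the air libraries, and smoke 1 lay far above the other smoke libraries. Whether these libraries carry exchanged labels was not tested; the labels were kept as given, so every silica and smoke value with all libraries includes them. Air 6, the deepest library, had 480 CPM of the collagen gene Col1a1, against 44.4 to 119 CPM in the other 5 air libraries. The counts of called genes in each comparison are given for all 24 libraries and again without the libraries that stood apart.

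Summed over the set, S phase genes were highest in the combined group. The 18 genes together stood at 338, 349 and 367 CPM (lowest, median and highest library) in the combined group, 247, 311 and 324 CPM in the silica group and 221, 276 and 375 CPM in the air group. In the 5 smoke libraries with depth they stood at 228 to 304 CPM. All 6 combined libraries lay above the 5 air libraries other than air 6, but below air 6. The 21 mitosis genes stood at 268, 281 and 307 CPM in the combined group, 179, 258 and 396 CPM in the silica group and 146, 158 and 397 CPM in the air group. In the 5 smoke libraries they stood at 153 to 261 CPM. Without silica 1, smoke 1, smoke 2 and air 6, the mitosis sum averaged 285 ± 17.2 CPM in the combined group (SD, n = 6), 287 ± 63.6 CPM in the silica group (n = 5), 158 ± 4.10 CPM in the smoke group (n = 4) and 158 ± 15.3 CPM in the air group (n = 5). For the S phase sum the same means were 350 ± 10.7, 314 ± 7.69, 239 ± 17.6 and 256 ± 27.2 CPM. On both sums the combined and silica libraries then lay above every smoke and air library. This gap was widened by construction. On both sums silica 1 was the lowest silica library, air 6 the highest air library and smoke 1 the highest smoke library with depth.

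**Figure D2:**
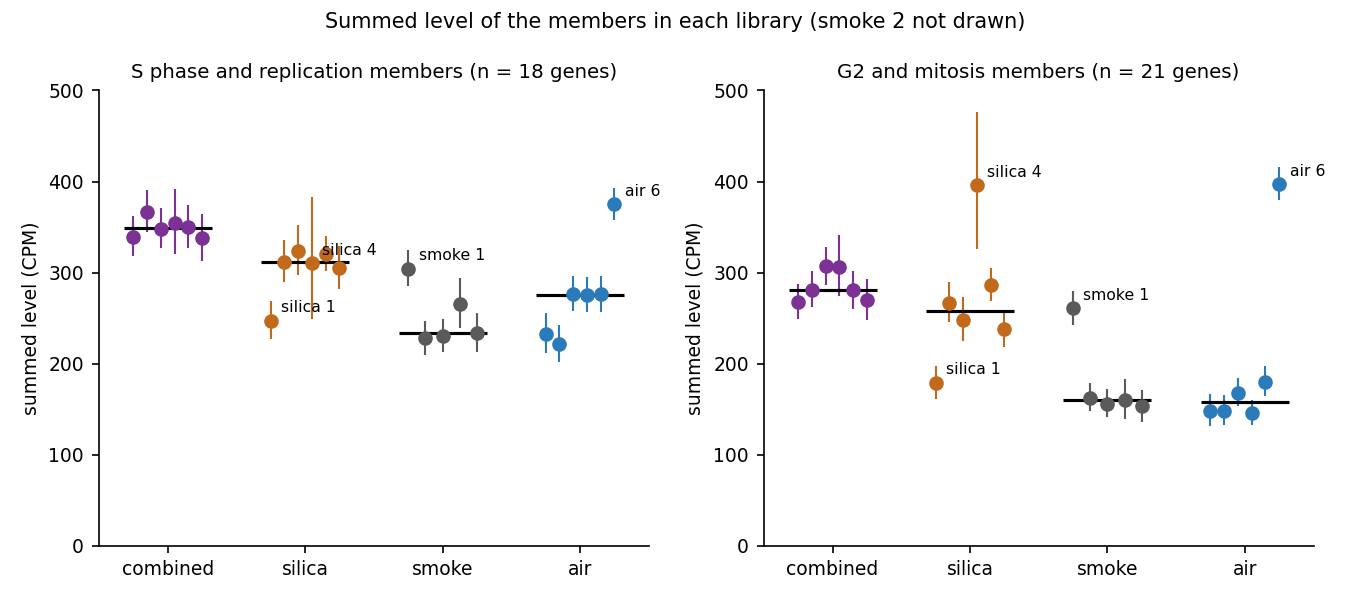
Summed level (CPM, axis from 0) of the S phase set (left, 18 genes) and the mitosis set (right, 21 genes) in each library, by group, without smoke 2. Bars are exact 95% binomial intervals of the counts in 1 library and cover counting error only, and black lines are group medians of the libraries drawn. Air 6 stands at 375 CPM on the left and 397 CPM on the right, apart from the other air libraries, and silica 1 and smoke 1 stand apart from their groups in opposite directions.

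The libraries that stood apart did so across most of the genes. Air 6 was the highest air library for 27 of the 32 tested genes, 12 of 15 in the S phase set and 15 of 17 in the mitosis set. Smoke 1 was the highest of the 5 smoke libraries for 22 of 32 genes, and silica 1 the lowest silica library for 18 of 32. Silica 4 was the highest silica library for 17 of 32 genes, but its counts were few: the mitosis sum of 396 CPM rests on 111 reads, with a 95% interval of 326 to 477 CPM.

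**Figure D3:**
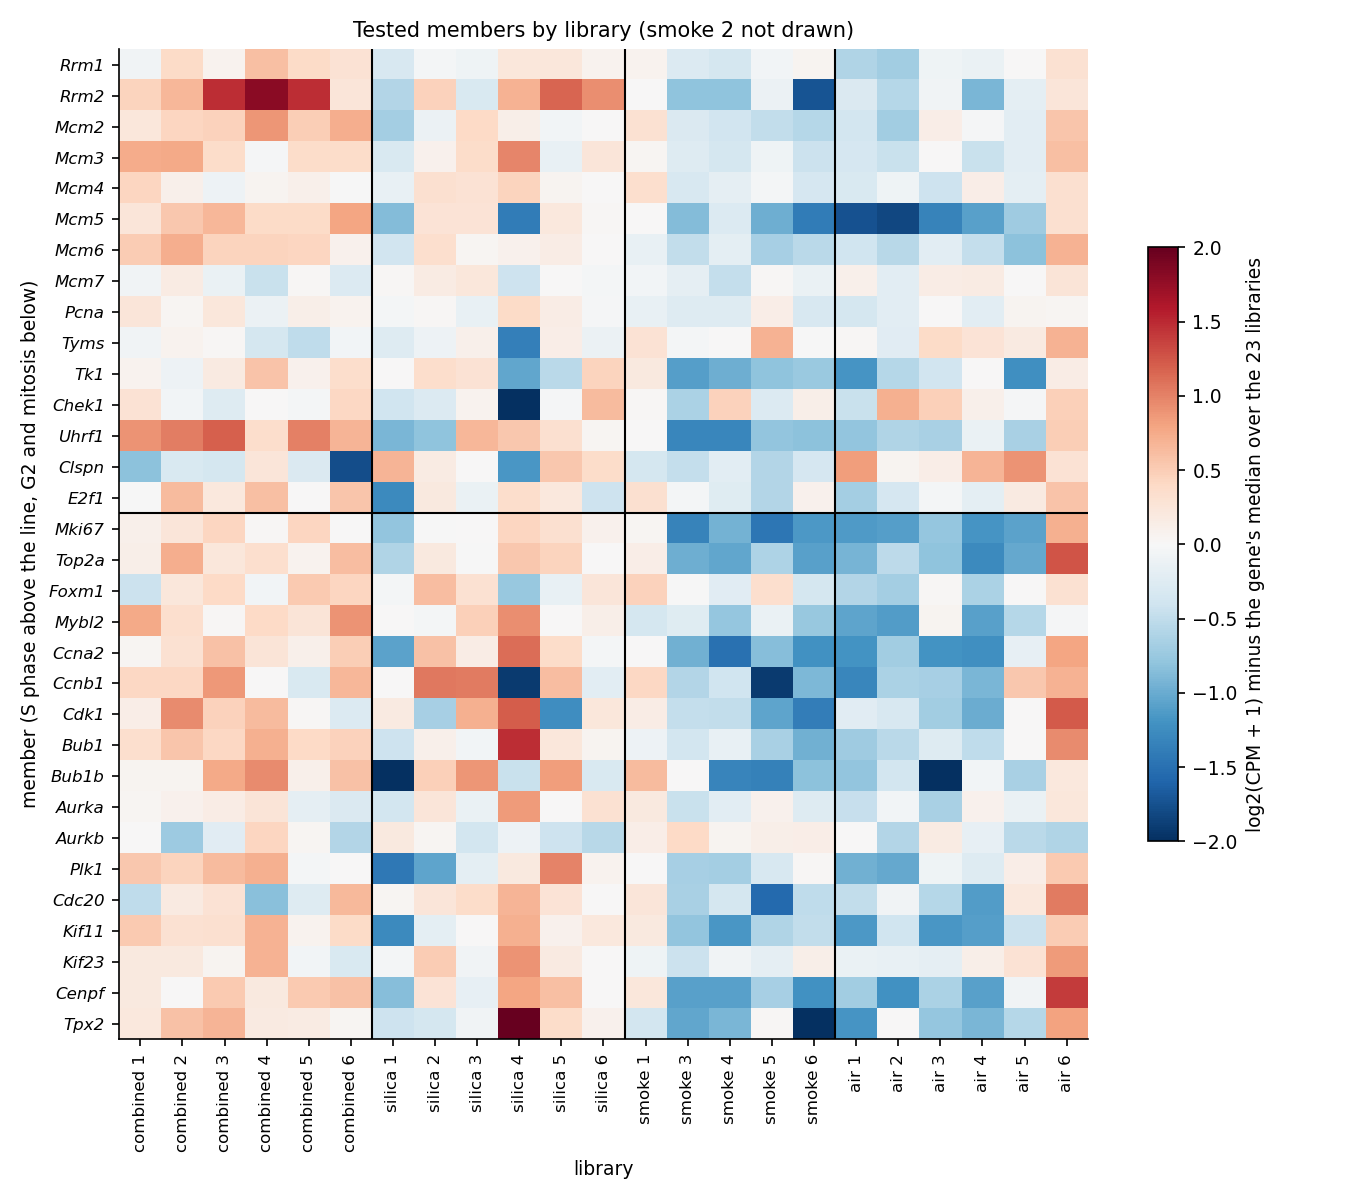
Level of each of the 32 tested genes in 23 libraries (smoke 2 is not drawn), as log2(CPM + 1) minus the gene's median over those libraries, red above and blue below the median, with S phase genes above the horizontal line. The combined columns are mostly red in both sets, the smoke columns other than smoke 1 mostly blue, and air 6 is red where the other air columns are blue.

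Combined exposure against air asks how lungs that received both agents differed from unexposed ones. Of the 15 S phase genes tested, 8 were higher and 1 was lower in combined lungs. Over all 13322 genes tested, 11.6% were called higher and 10.8% lower (edgeR quasi-likelihood test, Benjamini-Hochberg adjusted p under 0.05). The median log2 fold change was 0.46 over the S phase set and -0.01 over all genes. The higher genes were both subunits of ribonucleotide reductase, 4 of the 6 MCM helicase subunits, Pcna and Uhrf1, and the lower gene was Clspn. With DESeq2 the calls of Rrm1, Mcm2, Mcm3, Mcm6 and Pcna were lost.

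Rrm2, the regulated subunit of ribonucleotide reductase, stood at 4.95, 9.92 and 16.6 CPM (lowest, median and highest library) in combined lungs and 1.67, 3.25 and 4.91 CPM in air lungs. All 6 combined libraries lay above all 6 air libraries, the nearest pair being almost level, and this was the only one of the 32 genes without overlap, against 5.37% of all tested genes. Rrm2 differed by 1.57 ± 0.35 on the log2 scale (SE, edgeR adjusted p = 0.0015). Rrm1, the large subunit, was higher by a log2 fold change of 0.46 ± 0.14. Mcm5, an MCM helicase subunit, stood at 13.2, 15.6 and 19.8 CPM in combined lungs and 2.39, 4.21 and 14.1 CPM in air lungs. The highest air value was that of air 6, and the other 5 air libraries reached at most 6.37 CPM, below every combined library. Its log2 fold change was 1.41 ± 0.30 with all 24 libraries (edgeR adjusted p = 0.001) and 2.01 ± 0.26 without air 6. Mcm2 stood at 27.1, 32.5 and 43.3 CPM in combined lungs and 13.9, 21.3 and 34.1 CPM in air lungs, which overlapped through air 6 alone. Its log2 fold change was 0.60 ± 0.18 (edgeR adjusted p = 0.0142), beside 0.60 ± 0.18 for Mcm3 and 0.68 ± 0.19 for Mcm6. The remaining subunits did not pass the test, with log2 fold changes of 0.21 ± 0.14 for Mcm4 and -0.14 ± 0.10 for Mcm7.

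Uhrf1, which recruits the maintenance DNA methyltransferase to newly copied DNA, stood at 9.22, 14.5 and 17.3 CPM in combined lungs and 3.64, 4.21 and 10.2 CPM in air lungs. Again the groups overlapped through air 6 only. Uhrf1 differed by 1.32 ± 0.27 (edgeR adjusted p = 0.000782). Pcna, the sliding clamp, stood at 49.8, 58.2 and 64.5 CPM in combined lungs and 42.2, 50.7 and 56.2 CPM in air lungs, with broad overlap. Its log2 fold change of 0.26 ± 0.10 passed the test narrowly (edgeR adjusted p = 0.0467) and was lost in 11 of 24 fits that left out 1 library each (combined 1, 3, 5 or 6, silica 2 or 6, smoke 4, or air 1, 2, 3 or 4). Clspn, which encodes claspin, the adaptor that lets Chek1 be activated at stalled forks, went the other way. It stood at 1.98, 7.15 and 11.1 CPM in combined lungs and 9.57, 13.4 and 18.0 CPM in air lungs, with 1 combined library, combined 4, inside the air range. Clspn differed by -1.05 ± 0.23 (edgeR adjusted p = 0.00161), and -1.11 ± 0.24 without the 4 libraries that stood apart. With all 24 libraries Mcm4, Mcm7 and the following S phase genes did not pass. Tyms, the thymidylate synthase, differed by -0.38 ± 0.17, and Tk1, the salvage thymidine kinase, by 0.67 ± 0.26 (edgeR adjusted p = 0.0668). Chek1, the S phase checkpoint kinase, differed by -0.20 ± 0.27, and E2f1, an activating E2F, by 0.39 ± 0.23.

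Of the 17 mitosis genes tested, 3 (17.6%) were higher in combined than in air lungs and 0 lower, with a median log2 fold change of 0.56. Of all genes 11.6% were called higher and 10.8% lower, so the share higher was not far above that of all genes. Mki67, whose protein Ki-67 coats mitotic chromosomes and marks cycling cells, stood at 60.9, 69.0 and 82.5 CPM in combined lungs. In air 1 to air 6 it stood at 27.1, 27.8, 35.2, 26.3, 28.5 and 101 CPM. Every combined library lay above 5 of the 6 air libraries, and air 6 lay above every combined library. The log2 fold change was 0.78 ± 0.27 with all libraries (edgeR adjusted p = 0.0337) and 1.34 ± 0.20 without air 6 (edgeR adjusted p = 1.83e-05). The call was lost without combined 3 or 5 or without any 1 of air 1 to air 5. Mybl2, the B-Myb subunit that joins MuvB, stood at 3.31, 4.50 and 6.93 CPM in combined lungs and 0.957, 1.46 and 3.42 CPM in air lungs. Only air 3 reached into the combined range. Mybl2 differed by 1.27 ± 0.29 (edgeR adjusted p = 0.00213). Kif11, the spindle motor that pushes the poles apart, stood at 11.0, 13.6 and 17.5 CPM in combined lungs and 4.10, 5.91 and 15.4 CPM in air lungs, the highest being air 6. Its log2 fold change was 0.90 ± 0.28 (edgeR adjusted p = 0.0223) and was lost without air 3 or air 4. With DESeq2 Mki67 and Kif11 were lost and Mybl2 was kept.

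Top2a, the topoisomerase that untangles sister chromatids, did not pass with all 24 libraries. It stood at 22.8, 26.5 and 36.6 CPM in combined lungs and 8.33, 11.4 and 53.1 CPM in air lungs, where air 6 was the highest of all and the other 5 reached at most 14.8 CPM. The log2 fold change was 0.56 ± 0.34 (edgeR adjusted p = 0.241), and 1.38 ± 0.25 without air 6 (edgeR adjusted p = 0.000177). Cdk1, the kinase that drives entry into mitosis, stood at 4.46, 7.17 and 11.7 CPM in combined lungs and 2.33, 4.50 and 14.5 CPM in air lungs, with overlap even apart from air 6. Cdk1 differed by 0.33 ± 0.37 (edgeR adjusted p = 0.586), and 0.97 ± 0.35 without air 6 (edgeR adjusted p = 0.0462).

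Without air 6, 11 of 16 mitosis genes and 9 of 15 S phase genes were called higher in combined than in air lungs and Clspn lower, against 11.3% of all genes called higher and 9.58% lower. Those in the mitosis set, which include Foxm1, the MuvB partner, and Bub1b, a spindle checkpoint protein, were Mki67, Top2a, Foxm1, Mybl2, Ccna2, Cdk1, Bub1, Bub1b, Kif11, Cenpf and Tpx2, with log2 fold changes of 0.67 to 1.51. In the same libraries 13 of 32 genes had all 6 combined libraries above the 5 air libraries, against 6.55% of all tested genes. Without silica 1, smoke 1, smoke 2 and air 6 together, 12 of 18 mitosis genes and 11 of 15 S phase genes were higher and Clspn lower. Of all genes 13.1% were called higher and 11.9% lower. The 11 were all the S phase genes with a positive log2 fold change, and some of them did not pass with all 24 libraries. In that fit Rrm2 differed by 1.77 ± 0.34, Uhrf1 by 1.66 ± 0.23, Mcm2 by 0.76 ± 0.13, Mcm3 by 0.85 ± 0.16 and Mcm6 by 1.03 ± 0.14. Leaving out only silica 1, smoke 1 and smoke 2 gave 8 higher and 1 lower in the S phase set and 4 higher in the mitosis set, against 12.1% higher and 13.5% lower. The mitosis count therefore rested on air 6. That air 6 was the highest air library for most of these genes was known when this fit was chosen, so leaving it out raises the differences by construction.

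**Figure D4:**
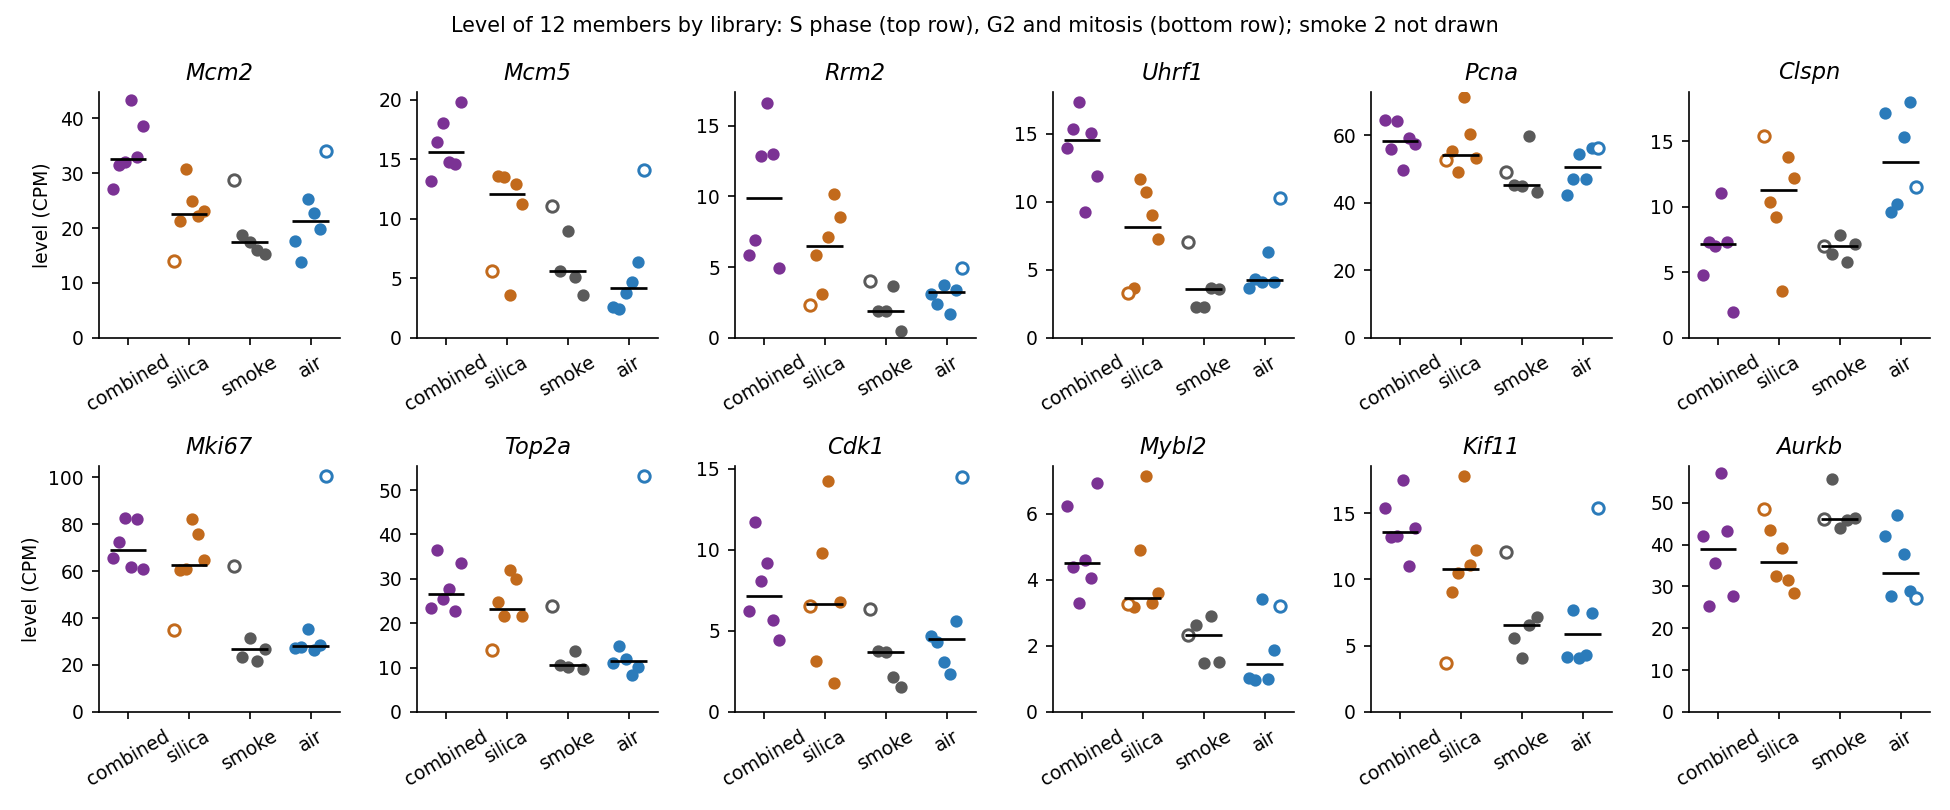
Level (CPM, axes from 0, a scale for each gene) of 12 genes in each library by group, S phase genes in the top row and mitosis genes in the bottom row, without smoke 2. Lines are group medians of the libraries drawn, and open circles are silica 1, smoke 1 and air 6. Mcm5, Uhrf1 and Mki67 are higher in every combined library than in the 5 air libraries drawn as filled points, and Clspn is lower in 5 of 6 combined libraries than in any air library.

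Combined exposure against smoke alone asks how lungs differed with silica added to smoke. Of 15 S phase genes 8 were higher and 0 lower in combined lungs, and of 17 mitosis genes 6 were higher and 0 lower, against 7.34% of all genes called higher and 5.57% lower. The median log2 fold change was 0.44 over the S phase set, 0.98 over the mitosis set and 0.00 over all genes. With DESeq2 3 of these 14 calls remained, Mcm2, Mcm6 and Mki67, and Rrm2, Mcm3, Mcm5, Pcna, Tk1, Uhrf1, Mybl2, Ccna2, Bub1, Kif11 and Tpx2 were lost. These values share the combined libraries with those against air, and neither list is independent of the other.

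In the S phase set, Uhrf1 stood at 9.22, 14.5 and 17.3 CPM in combined lungs and 2.23, 3.56 and 7.03 CPM in the 5 smoke libraries, without overlap. Uhrf1 differed by 1.91 ± 0.32 (edgeR adjusted p = 0.000507). Rrm2 stood at 0.509, 1.87 and 4.02 CPM in the 5 smoke libraries, below every combined library, and its log2 fold change was 2.04 ± 0.40 (edgeR adjusted p = 0.00195). Mcm5 stood at 3.56, 5.62 and 11.0 CPM in smoke lungs, also below every combined library, and differed by 1.21 ± 0.32. Mcm2 stood at 15.3, 17.5 and 28.8 CPM in smoke lungs, where smoke 1 alone lay inside the combined range, and differed by 0.81 ± 0.19 (edgeR adjusted p = 0.00637). Mcm6 differed by 0.91 ± 0.21 and Mcm3 by 0.78 ± 0.20. The smaller or less stable changes were those of Pcna (0.34 ± 0.10), lost without combined 1 or 3 or smoke 3, 4 or 6, and of Tk1 (0.88 ± 0.29, edgeR adjusted p = 0.046), lost in 12 of 24 fits that left out 1 library (combined 1, 3, 4, 5 or 6, silica 2, smoke 3, 4, 5 or 6, or air 2 or 3). Pcna stood at 43.3, 45.3 and 59.6 CPM in smoke lungs, overlapping the combined range. Clspn was not called here: it stood at 1.98, 7.15 and 11.1 CPM in combined lungs and 5.82, 7.03 and 7.82 CPM in smoke lungs, a log2 fold change of -0.09 ± 0.27.

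In the mitosis set, Mki67 stood at 60.9, 69.0 and 82.5 CPM in combined lungs and 21.8, 27.0 and 62.3 CPM in smoke lungs, where smoke 1 was the one library inside the combined range. The log2 fold change was 1.08 ± 0.29 (edgeR adjusted p = 0.0153). Mybl2 stood at 1.49, 2.34 and 2.91 CPM in smoke lungs, below every combined library, and differed by 1.21 ± 0.32 (edgeR adjusted p = 0.0127). Ccna2 (cyclin A, log2 fold change 1.33 ± 0.42), Tpx2 (a spindle assembly factor that activates Aurka, 1.32 ± 0.40), Kif11 (0.98 ± 0.31) and Bub1 (a spindle checkpoint kinase, 0.95 ± 0.27) also passed. Kif11 stood at 4.10, 6.54 and 12.0 CPM in smoke lungs, where only smoke 1 reached the combined range. In fits that left out 1 library, Kif11 was lost without combined 1, 2, 3, 4 or 6 or smoke 3, 4, 5 or 6, Ccna2 without combined 2, 3 or 6 or smoke 3, 4, 5 or 6, and Tpx2 without combined 2 or 3 or smoke 3, 4 or 6. Mki67 was lost without smoke 3 and Bub1 without smoke 6. Top2a stood at 9.67, 10.5 and 23.8 CPM in smoke lungs, where smoke 1 alone overlapped, and Cdk1 at 1.53, 3.72 and 6.36 CPM. Their log2 fold changes of 1.01 ± 0.38 (edgeR adjusted p = 0.0792) and 1.03 ± 0.44 (edgeR adjusted p = 0.118) did not pass, in a fit that included smoke 2, where 4 reads of Top2a stood at 185 CPM.

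Without smoke 1 and smoke 2, 18 of the 32 genes had all 6 combined libraries above the other 4 smoke libraries, against 7.75% of all tested genes, and with smoke 1 kept 8 of 32 did, against 4% of all. Apart from smoke 2, smoke 1 was the highest smoke library for 22 of the 32 genes. Leaving it out therefore raises this count, and the counts and differences that follow, by construction. Without silica 1, smoke 1 and smoke 2, 9 of 15 S phase genes and 10 of 18 mitosis genes were called higher, against 9.9% of all genes. Without air 6 as well, 10 of 15 and 12 of 18 were higher and 0 lower, against 13.2% of all genes higher and 12% lower. In that last fit Top2a differed by 1.43 ± 0.18, Cdk1 by 1.37 ± 0.40, Cenpf (a kinetochore protein) by 1.51 ± 0.22 and Ccnb1 (cyclin B) by 1.69 ± 0.53. Mki67 differed there by 1.48 ± 0.12.

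Silica alone against air had 0 genes called in either set with all 24 libraries, against 2.15% of all genes called higher and 1.01% lower. At an unadjusted p under 0.05 there were 3 of the 32, a smaller share than the 2427 of all 13322 genes. All 3 had a positive log2 fold change: Rrm2 (0.97 ± 0.38), Mcm5 (0.85 ± 0.32) and Mybl2 (0.86 ± 0.32, edgeR adjusted p = 0.136). DESeq2 called 0 as well, but limma voom with sample quality weights called 6 of the 32, Mcm5 (1.42 ± 0.28), Mcm6 (0.57 ± 0.15), Mki67 (1.05 ± 0.20), Top2a (0.99 ± 0.25), Mybl2 (1.17 ± 0.33) and Ccna2 (1.22 ± 0.33). With these weights 909 of all genes were called, against 422 by edgeR. The medians were 0.18 over the S phase set, 0.27 over the mitosis set and 0.00 over all genes. Mki67 stood at 35.0, 62.7 and 82.0 CPM in silica lungs, the lowest being silica 1, against 26.3, 28.1 and 101 CPM in air lungs. Apart from silica 1 and air 6, every silica library lay above every air library. Mki67 differed by 0.54 ± 0.28 with all libraries (edgeR adjusted p = 0.297) and 1.24 ± 0.12 without the 4 libraries that stood apart (edgeR adjusted p = 7.37e-09). Since silica 1 was the lowest silica library and air 6 the highest air library for Mki67, leaving them out raises the difference by construction. The smaller p is therefore not separate evidence. Top2a stood at 14.0, 23.3 and 32.1 CPM in silica lungs, again lowest in silica 1, and differed from air by 0.27 ± 0.35 with all libraries and by 1.23 ± 0.18 without the 4.

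Without those 4 libraries, 5 of 15 S phase genes and 10 of 18 mitosis genes were higher in silica than in air lungs, and 0 lower, against 6.62% of all genes higher and 4.78% lower. The S phase genes were Rrm2 (1.39 ± 0.38), Mcm4 (0.38 ± 0.13), Mcm5 (1.63 ± 0.25), Mcm6 (0.70 ± 0.16) and Uhrf1 (0.82 ± 0.27). The mitosis genes were Mki67, Top2a, Mybl2 (1.14 ± 0.38), Ccna2 (1.45 ± 0.29), Ccnb1 (1.43 ± 0.45), Bub1 (0.66 ± 0.21), Bub1b (1.46 ± 0.39), Kif11 (1.04 ± 0.23), Cenpf (1.05 ± 0.20) and Tpx2 (1.06 ± 0.35). Without silica 1, smoke 1 and smoke 2, 2 S phase genes and 0 mitosis genes were called higher. This was 6.06% of the 33 tested, no more than the 5.96% of all genes. Without air 6 alone 2 of each set were called higher, 12.9% of the 31 tested, against 1.67% of all genes. In CPM, 5 of 32 genes had the 5 other silica libraries above the 5 other air libraries, Mcm6, Mki67, Top2a, Ccna2 and Kif11, against 3.73% of all tested genes. Silica 1 was the lowest silica library for 18 of the 32 genes, and air 6 the highest air library for 27. Leaving them out therefore raises these counts by construction.

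Smoke alone against air had 0 genes called in either set, against 0.0976% of all genes called higher and 0.0525% lower, and DESeq2 also called 0 of the 32. At an unadjusted p under 0.05 there were 3 of the 32, a share near that of all genes (1105 of 13322). Clspn stood at 5.82, 7.03 and 7.82 CPM in the 5 smoke libraries and 9.57, 13.4 and 18.0 CPM in air lungs, without overlap, and its log2 fold change was -0.96 ± 0.24 (edgeR adjusted p = 0.142). Limma voom with sample quality weights called it, at -0.95 ± 0.22 (adjusted p = 0.0431), and called 72 of all genes. Aurkb, the kinase of the chromosomal passenger complex, stood at 44.0, 46.2 and 55.8 CPM in smoke lungs and 27.3, 33.3 and 47.2 CPM in air lungs, with 1 air library inside the smoke range, and differed by 0.45 ± 0.17 (edgeR adjusted p = 0.421). Mcm7 differed by -0.26 ± 0.11 (edgeR adjusted p = 0.492). The medians were -0.21 over the S phase set, -0.36 over the mitosis set and -0.01 over all genes. Without air 6 alone the set medians were 0.00 and 0.11, and without the 4 libraries that stood apart -0.08 and -0.15. Without the 4 libraries that stood apart, 0 were called in either set, against 0.289% of all genes higher and 0.436% lower.

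Combined exposure against silica alone had 0 genes called in either set, against 0.12% of all genes called higher and 0.128% lower, and DESeq2 also called 0 of the 32. At an unadjusted p under 0.05 there were 6 of the 32, beside 1713 of all 13322 genes. All 6 were in the S phase set: Uhrf1, Mcm2, Mcm3, Mcm6 and E2f1 with positive log2 fold changes and Clspn with a negative one. Uhrf1 stood at 9.22, 14.5 and 17.3 CPM in combined lungs and 3.26, 8.11 and 11.7 CPM in silica lungs, and 2 silica libraries reached into the combined range. Its log2 fold change was 1.01 ± 0.29 (edgeR adjusted p = 0.123). It was called without air 6 (1.01 ± 0.25, edgeR adjusted p = 0.046), when 0.422% of all genes were called higher, and with quality weights (1.20 ± 0.23, limma adjusted p = 0.00919). Clspn stood at 3.57, 11.3 and 15.4 CPM in silica lungs, the lowest being the shallow silica 4, and differed by -0.91 ± 0.25 (edgeR adjusted p = 0.106), or -0.97 ± 0.24 with quality weights, which called it (limma adjusted p = 0.0439). With quality weights 116 of all genes were called. Mcm2 stood at 14.0, 22.6 and 30.7 CPM in silica lungs, lowest in silica 1, and differed by 0.61 ± 0.19 (edgeR adjusted p = 0.158). In the mitosis set the log2 fold changes ran from -0.19 to 0.52, with Kif11 the smallest p (0.52 ± 0.30, edgeR adjusted p = 0.47) and Mki67 at 0.23 ± 0.27. Without the 4 libraries 0 were called in either set, against 0.451% of all genes higher and 0.37% lower. No gene of either set had its 6 combined libraries above the 6 silica libraries, against 0.638% of all tested genes.

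The interaction asks whether the log2 change under both agents differed from the sum of the changes under each. It was called for 0 of the 32 genes and 0 of all 13322 by edgeR, and by DESeq2 for 1 of all and 0 of the 32. At an unadjusted p under 0.05 edgeR had 5 of the 32, Uhrf1 (1.60 ± 0.45, edgeR adjusted p = 0.348), Mcm2 (0.83 ± 0.27), Mcm3 (0.58 ± 0.28), Mcm6 (0.66 ± 0.29) and Bub1 (0.81 ± 0.37), and 977 of all genes. The 4 libraries that stood apart bear on this: without them 0.0814% of all genes were called positive and 0.0592% negative, and 0 of the genes described here.

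**Figure D5:**
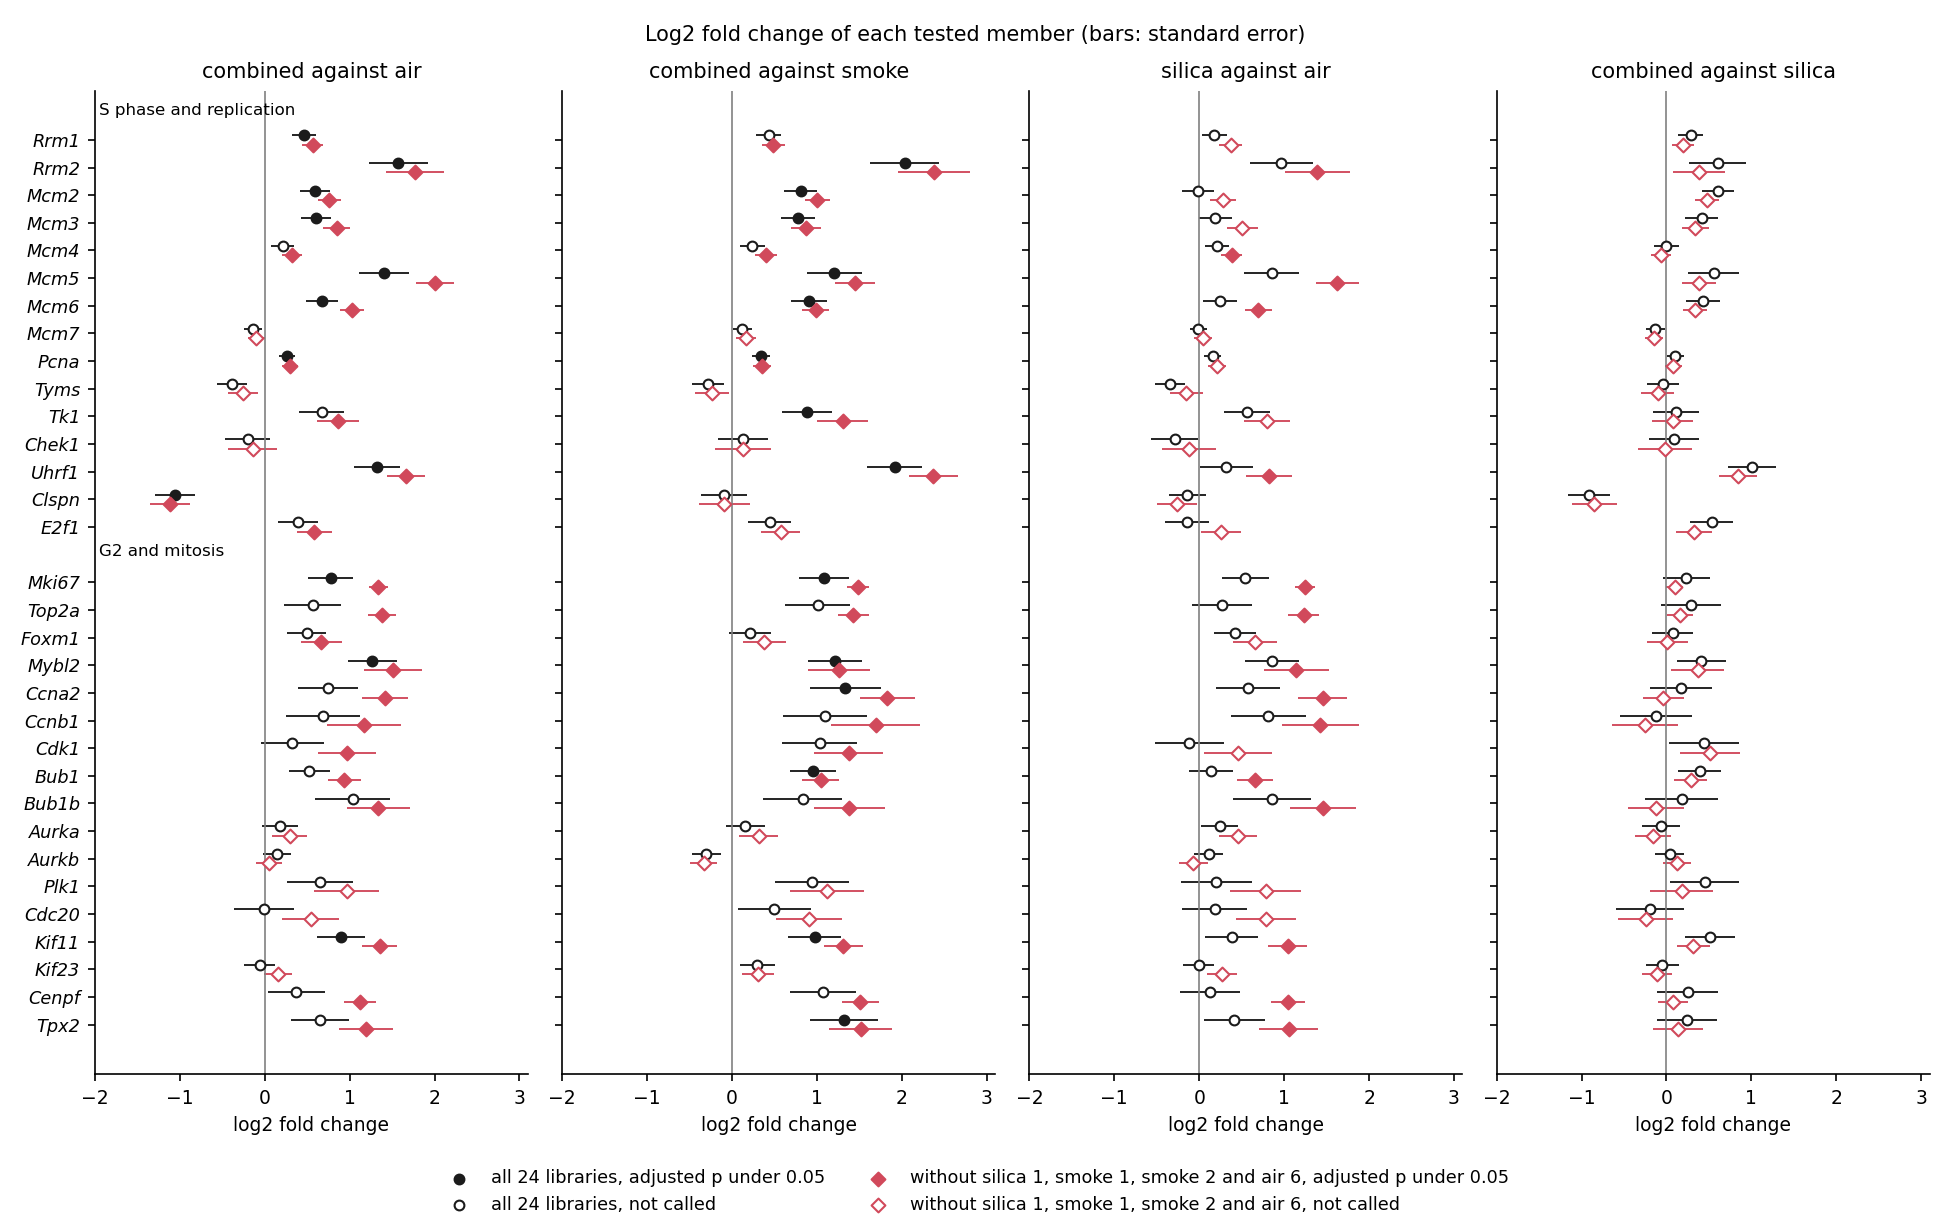
Log2 fold change with its standard error for the 32 tested genes in 4 comparisons, with all 24 libraries (circles) and without silica 1, smoke 1, smoke 2 and air 6 (diamonds), filled where the edgeR adjusted p was under 0.05. Without the 4 libraries most mitosis genes move to the right and more of them are filled in the first 3 panels. In the panel of combined against silica no symbol is filled.

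The 7 genes too low to be tested were Cdc6 and Cdt1, which load the MCM helicase, Gins1, a part of the active helicase, Ccnb2 (cyclin B), Birc5 (survivin) and Cdca8 (borealin) of the chromosomal passenger complex, and Ube2c, the ubiquitin-conjugating enzyme of the anaphase-promoting complex. None had more than 28 reads in a library. In a fit without the filter on low counts the smallest adjusted p were those of Cdc6 in combined against air (log2 fold change 1.21 ± 0.43, edgeR adjusted p = 0.0565) and Cdca8 in combined against smoke (1.28 ± 0.46, edgeR adjusted p = 0.0865). The tested mitosis genes that edgeR called in no comparison with all libraries were Top2a, Foxm1, Ccnb1, Cdk1, Bub1b, Aurka, Aurkb, Plk1, Cdc20, Kif23 and Cenpf. Of these, Aurka and Aurkb, the mitotic kinases, Plk1, Cdc20, the activator of the anaphase-promoting complex, and Kif23, a motor of the central spindle, were also not called without the 4 libraries. Aurkb stood at 25.2, 38.9 and 57.2 CPM in combined lungs, 28.5, 35.9 and 48.5 CPM in silica lungs and 27.3, 33.3 and 47.2 CPM in air lungs, so the groups overlapped throughout.

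Other genes of the cycle were read from lists, whose counts stand beside 11.6% of all genes called higher and 10.8% lower in combined against air, and 7.34% and 5.57% against smoke. Of 36 other mitosis genes tested, 11 were higher and 1 lower in combined than in air lungs, with a median log2 fold change of 0.53, and 12 were higher and 0 lower against smoke, with a median of 0.80. Against air the smallest p belonged to Kif4a, a chromosome-bound motor (-0.96 ± 0.19), Cenpe, a kinetochore motor (1.08 ± 0.25), Ccnf (cyclin F, 0.97 ± 0.27) and Ncapd2 (condensin, 0.54 ± 0.15). Against smoke they belonged to Cenpe (1.23 ± 0.28), Prc1, which bundles the central spindle (0.89 ± 0.21), Shcbp1 (1.81 ± 0.46) and Smc2 (condensin, 0.67 ± 0.18). Cenpe was also the one gene of these lists called in silica against air (0.92 ± 0.26, edgeR adjusted p = 0.0479). It stood at 11.0, 15.8 and 24.9 CPM in combined lungs, 9.32, 15.0 and 17.2 CPM in silica lungs, 4.07, 7.45 and 9.45 CPM in the 5 smoke libraries and 4.00, 6.06 and 15.4 CPM in air lungs. Without the 4 libraries that stood apart 28 of 38 were higher and 1 lower both in combined against air and in combined against smoke, against 13.1% and 13.2% of all genes higher, and 17 were higher in silica against air, against 6.62%.

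Of 29 other replication genes tested, 5 were higher and 1 lower in combined than in air lungs, with a median of 0.14: Mcm10 (1.04 ± 0.28), Pole, the leading-strand polymerase (0.72 ± 0.21), Dnmt1, the maintenance DNA methyltransferase (0.33 ± 0.10), Fen1, the flap nuclease (0.66 ± 0.22), and Gmnn, the inhibitor of Cdt1 (0.82 ± 0.28), were higher, and Dut, which removes dUTP (-0.47 ± 0.14), was lower. Against smoke 2 were higher, Fen1 (0.93 ± 0.25) and Pole (0.76 ± 0.23). The share higher against smoke was near that of all genes. Without the 4 libraries 7 of 30 were higher in each of these comparisons, against 13.1% and 13.2% of all genes. None of the 8 G1 cyclins and kinases tested was called in any comparison. Ccnd1 (cyclin D) stood at 225, 246 and 257 CPM in combined lungs and 230, 255 and 261 CPM in air lungs, a log2 fold change of 0.01 ± 0.08. It was 0.11 ± 0.08 against silica, -0.06 ± 0.08 against smoke, -0.10 ± 0.08 in silica against air and 0.07 ± 0.08 in smoke against air.

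Of 8 CDK inhibitors and pocket proteins tested, 3 were lower and 0 higher in combined than in air lungs, against 10.8% and 11.6% of all genes. When the 4 libraries that stood apart were left out, 4 were lower and 1 higher, against 11.9% and 13.1% of all genes. In that fit Cdkn1a was at -0.41 ± 0.11, Cdkn1c at -0.68 ± 0.18 and Cdkn2b at -0.32 ± 0.08. Cdkn1a (p21), which stops the cycle downstream of p53, stood at 28.7, 29.9 and 38.5 CPM in combined lungs and 36.1, 40.2 and 50.2 CPM in air lungs, so the ranges overlapped at their edges. Cdkn1a differed by -0.36 ± 0.11 (edgeR adjusted p = 0.0155). In smoke lungs Cdkn1a stood at 24.9, 29.4 and 34.4 CPM, and differed from air by -0.47 ± 0.11, which did not pass with all libraries (edgeR adjusted p = 0.113) and passed without the 4 (-0.56 ± 0.12, edgeR adjusted p = 0.0205). It differed by -0.34 ± 0.11 in combined against silica, 0.11 ± 0.12 in combined against smoke and -0.02 ± 0.11 in silica against air, none of which passed. Cdkn1c (p57) was lower in combined than in air lungs (-0.55 ± 0.20, edgeR adjusted p = 0.0453), as was Cdkn2b (p15, -0.30 ± 0.09). Cdkn1c was not called in combined against silica (-0.46 ± 0.21), combined against smoke (-0.20 ± 0.22), silica against air (-0.09 ± 0.20) or smoke against air (-0.34 ± 0.20). Cdkn2a, which encodes p16 and p19Arf in rodents, was at most at 0.41 CPM in any group and was not tested. Against smoke, Rbl1, a pocket protein, was higher (0.62 ± 0.19), and Rb1 (-0.46 ± 0.14) and Rbl2 (-0.30 ± 0.10), the others of its family, were lower.

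Of 10 other E2F and MuvB genes tested, E2f2 was higher (0.54 ± 0.16) and Tfdp2, an E2F partner, lower (-0.39 ± 0.14) in combined than in air lungs, and Tfdp2 was lower against smoke (-0.61 ± 0.14). Of 10 p53 targets tested, 1 was higher and 2 lower in combined than in air lungs, Ccng1 (0.54 ± 0.09), Phlda3 (-0.42 ± 0.14) and Cdkn1a, and Ccng1 was higher against smoke (0.39 ± 0.10). The shares of both lists called against air were near those of all genes, 11.6% higher and 10.8% lower. With the 4 libraries left out, Phlda3 was not called against air (-0.33 ± 0.14), E2f3 was called higher (0.74 ± 0.27), and E2f2 and Ccng1 were also called higher in silica against air (0.42 ± 0.13 and 0.32 ± 0.09). With all libraries 0 genes of any of these lists were called in combined against silica or in smoke against air.

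Markers of immune and structural cells were read in the same libraries. The 10 macrophage markers summed to 1012 to 1217 CPM in combined lungs, 648 to 1059 CPM in silica lungs, 578 to 865 CPM in the 5 smoke libraries and 560 to 851 CPM in air lungs. The 8 neutrophil markers summed to 370 to 824 CPM in combined lungs, 120 to 651 CPM in silica lungs, 131 to 508 CPM in smoke lungs and 79.7 to 143 CPM in air lungs. The lowest silica library on both sums was silica 1 and the highest smoke library smoke 1. In combined against air, 5 of 9 macrophage markers tested were higher and 1 lower, 5 of 5 neutrophil markers and 3 of 8 alveolar type 2 markers were higher, 6 of 8 endothelial, 3 of 5 alveolar type 1 and 3 of 5 fibroblast markers were lower, and 0 of 7 T and NK cell markers were called, against 11.6% of all genes higher and 10.8% lower. In combined against smoke 5 of 9 macrophage, 2 of 5 neutrophil and 3 of 8 alveolar type 2 markers were higher and 5 of 8 endothelial markers lower, against 7.34% and 5.57% of all genes. In silica against air 4 of 9 macrophage and 4 of 5 neutrophil markers were higher and 0 of 8 endothelial markers called, against 2.15% of all genes higher and 1.01% lower. In combined against silica 0 markers of these lists were called, and in smoke against air 1 of them was lower, the macrophage marker Cd163 (-1.19). With those 4 left out, 5 of 9 macrophage and 5 of 5 neutrophil markers were higher both in combined and in silica lungs against air, and 1 of 5 fibroblast markers was lower in combined against air. Of all genes 13.1% were then higher and 11.9% lower in combined against air, and 6.62% higher in silica against air. Air 6 had 6013 CPM of the 6 fibroblast markers, against 1205 to 1453 CPM in the other 5 air libraries, but 560 CPM of macrophage markers and 104 CPM of neutrophil markers. The other 5 air libraries had 640 to 851 CPM of macrophage markers and 79.7 to 143 CPM of neutrophil markers. The part of these markers in the levels of the cell cycle genes was not tested.

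Whether reads were counted by strand is not stated in these sources, so reads of overlapping genes cannot be told apart. In RefSeq, 7 of the 39 genes overlap another protein-coding gene. Kif4a, of the other mitosis genes, overlaps the protein-coding gene Pdzd11, so its lower level cannot be assigned to Kif4a alone. For Clspn and Uhrf1 the overlapping genes had 0 or 1 read in every library. Cys1, which overlaps Rrm2, differed in the opposite direction (-0.71 ± 0.29 against air and -1.20 ± 0.29 against smoke), and Ide, which overlaps Kif11, differed by 0.25 ± 0.09 against air (edgeR adjusted p = 0.0517).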

How the data were processed

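RNA-seq was made from a piece of lung of 24 rats, 1 library a rat. The deposited file holds whole-number counts per gene, made by the authors. Per the submitters' processing notes, the tools named are HISAT2 2.1.0, HTSeq 0.11.2, SAMtools 1.8, Trimmomatic 0.35, bcl2fastq 2.19 and Cufflinks. The sources used here give no genome build, annotation or strand setting. Of 30069 lines, 26 repeated ones were removed, leaving 30043 genes.

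Counts were filtered with edgeR 4.0.16 (filterByExpr, minimum count 10), scaled by TMM and tested with its quasi-likelihood test in 1 fit of all 4 groups (R 4.3.3, residual df 20), with Benjamini-Hochberg adjustment over the 13322 genes tested. Standard errors were derived from the log2 fold change and the F statistic. CPM was computed from the total count. Alternatives were DESeq2 1.42.0, limma 3.58.1 (voom, with and without quality weights), RLE scaling, other filters, the compared groups alone and libraries left out. The scripts were tested on simulated counts. Replicates are separate rats, housed 2 per cage; the labels do not pair cages with libraries. Replicate numbers were given in accession order. Pairs of libraries within a group differed beyond counting noise (lowest chi-square per degree of freedom 1.80). Intervals cover counting error only.

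The members and the other lists were chosen with earlier results of these data known. All 39 members were accounted for. Each one called by edgeR with all 24 libraries is named, but not every one called only in another fit. Values by group are given for Mki67, Top2a, Cdk1, Pcna, Mcm2, Rrm2 and the S phase and mitosis member with the smallest p in each comparison. Up to 4 called genes are named per other list and comparison, plus Cdkn1a, Ccnd1, Cdkn2a and Cdkn1c.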

Additional observations from a re-analysis of the deposited data

Results flagged for a closer look

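In 14 of 56 groups of 6 libraries examined (summed CPM of each set and CPM of the genes whose levels are given by group), 1 library lay far from the other 5. By chance alone a share of about 0.05 of such groups would be expected to do so. The groups share libraries, and the sums hold the single genes, so the flags are not independent of each other. The count therefore does not give the number of separate oddities.

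Air 6 was high in 7 of them, at 375 CPM for the S phase sum and 397 CPM for the mitosis sum, and for Mki67 at 101 CPM, Top2a at 53.1 CPM, Cdk1 at 14.5 CPM, Kif11 at 15.4 CPM and Mcm5 at 14.1 CPM. Smoke 2, with 21629 counts in all, stood apart in 6, at 0 CPM for the S phase sum, Pcna, Clspn and Aurkb, at 555 CPM for the mitosis sum (12 reads) and at 185 CPM for Top2a (4 reads). Silica 1 was low for the S phase sum, at 247 CPM, with the next silica library at 305 CPM.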

How the results depend on the processing

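No called gene changed direction under any alternative. In smoke against air, where 0 genes were called, the mitosis median changed sign without air 6 alone. It was then 0.11 in place of -0.36, with 12 of 16 genes positive in place of 5 of 17. It stayed negative without the 4 libraries that stood apart, at -0.15 with 4 of 18 positive. Without smoke 1 alone it was -0.60, with 3 of 18 positive. With DESeq2 the calls against air in combined lungs fell to 4 S phase genes and 1 mitosis gene, and against smoke to 2 and 1; over all genes it called 1665 in place of 2987 in combined against air, 834 in place of 1720 in combined against smoke and 177 in place of 422 in silica against air. With quality weights the mitosis calls were 12 in combined against air, 10 in combined against smoke and 4 in silica against air, and the S phase calls 2 in combined against silica, 2 in silica against air and 1 in smoke against air. Calls over all genes rose as well, to 3698 in combined against air, 3368 in combined against smoke and 909 in silica against air. They were 116 in combined against silica and 72 in smoke against air. A minimum count of 30 left 3 mitosis calls in combined against smoke, of 7 genes tested, and 1702 calls over all genes. Without silica 1, smoke 1 and smoke 2 there were 10 mitosis calls in combined against smoke and 2 S phase calls in silica against air. Of all genes 9.9% and 5.96% were then called higher in these comparisons. Without air 6 as well, mitosis calls were 12 in combined against air, 12 in combined against smoke and 10 in silica against air, and S phase calls 5 in silica against air. Of all genes 13.1%, 13.2% and 6.62% were then called higher in these 3 comparisons. The libraries left out were the lowest or highest of their groups for many of these genes, which raises such calls by construction. The cause of these differences was not tested.

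Leaving out 1 library at a time, S phase calls ran from 8 to 10 in combined against air, 6 to 9 in combined against smoke, 0 to 2 in silica against air and 0 to 1 in combined against silica. Mitosis calls ran from 1 (without air 3 or air 4) to 11 (without air 6) in combined against air, 2 (without smoke 3 or smoke 6) to 9 (without smoke 1 or air 6) in combined against smoke, and 0 to 2 in silica against air. Without air 6, 11.3% of all genes were called higher in combined against air, 1.67% in silica against air and 0.422% in combined against silica. The share of all genes is not given for combined against smoke or for the other fits. Whether these ranges follow the sets or all genes therefore cannot be told. No paired analysis was possible because the labels give no replicate numbers shared between groups. Depth limits smoke 2, where 3 counts stand at 139 CPM.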
